A study of Homo sapiens with 38 samples.

Results

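H3K27ac and H3K27me3 peaks were compared in 20 CUT&Tag libraries of K562 cells that the authors had downsampled to 1 shared read depth, out of the 38 libraries of the series. K562 is a widely used human leukemia line whose cells resemble early red cell precursors. CUT&Tag uses an antibody to bring the transposase Tn5 to a histone mark, where it cuts and tags the nearby DNA for sequencing. The 20 libraries are those of the experiment on PCR cycles and DNA extraction. They comprise 16 H3K27ac libraries, from the antibodies Abcam-ab177178, Abcam-ab4729 and Active Motif 39133 at 1/100 and Diagenode C15410196 at 1/50, each with 11 or 13 PCR cycles and SDS-based or column-based extraction. These were set against 4 H3K27me3 libraries of the antibody CST 9733 at 1/100, with the same cycles and extractions. Each of the 4 combinations of cycles and extraction thus held 4 H3K27ac libraries and 1 H3K27me3 library, all from untreated cells (no TSA, an inhibitor of histone deacetylases). The antibodies are called ab177178, ab4729, Active Motif, Diagenode and CST-9733 below. Libraries that share a mark differ in antibody, cycles or extraction, and nothing in the labels says that they came from separate cultures, so p-values measure only the spread between these libraries. H3K27me3 had 1 antibody and, per the study's methods, a higher peak calling threshold, which admits more peaks and is the less strict one. Mark, antibody and threshold thus cannot be told apart.

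Acetylation of lysine 27 of histone H3 marks active promoters and enhancers and is set by acetyltransferases such as CBP and p300. Methylation of the same lysine to H3K27me3 is set by PRC2, the Polycomb complex with the catalytic subunit EZH2 or EZH1, and lies over silent developmental genes. A single histone tail cannot carry both marks on this lysine. In erythroid cells the factors GATA1, TAL1 and KLF1 act at active genes, while HOX, PAX and other developmental genes of foreign lineages are the classical Polycomb targets.

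The sequences printed here show what the compared regions look like in letters. They are read 5' to 3' from GRCh37 (hg19), the build of the lists, or from the RefSeq promoter table (GRCh38.p14) where its 250 bases before a gene's start were found letter for letter in GRCh37. Capitals mark CG dinucleotides and the GATA core AGATAA on either strand. The promoters of FAM78A (chr9:134153158-134153407, minus strand) and PTPN7 (chr1:202129731-202129980, minus strand), a tyrosine phosphatase of blood cells, stand for genes with H3K27ac in every library, and that of FIBCD1 (chr9:133814635-133814884, minus strand), a membrane receptor of the fibrinogen domain family, for genes with H3K27me3 in every library. GATA1 (chrX:48644748-48644997, plus strand), the erythroid master regulator, and HOXD4 (chr2:177016028-177016277, plus strand), a body axis homeobox gene, were chosen after their values were seen. So were an intron stretch of the potassium channel gene KCNH2 (chr7:150653467-150653673) and the centre of the region at the NUP214 promoter that both marks shared (chr9:134000512-134000811).
FAM78A: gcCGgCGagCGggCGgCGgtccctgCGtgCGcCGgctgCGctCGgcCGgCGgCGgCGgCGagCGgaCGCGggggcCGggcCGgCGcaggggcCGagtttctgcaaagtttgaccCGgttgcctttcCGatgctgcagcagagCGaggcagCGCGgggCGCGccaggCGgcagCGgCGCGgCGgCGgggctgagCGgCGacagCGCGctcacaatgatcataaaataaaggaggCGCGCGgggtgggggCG
PTPN7: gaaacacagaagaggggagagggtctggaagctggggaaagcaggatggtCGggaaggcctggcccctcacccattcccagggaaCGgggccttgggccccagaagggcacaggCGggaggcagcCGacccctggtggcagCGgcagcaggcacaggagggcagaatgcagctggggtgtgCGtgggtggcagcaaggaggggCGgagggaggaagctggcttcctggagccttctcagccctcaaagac
FIBCD1: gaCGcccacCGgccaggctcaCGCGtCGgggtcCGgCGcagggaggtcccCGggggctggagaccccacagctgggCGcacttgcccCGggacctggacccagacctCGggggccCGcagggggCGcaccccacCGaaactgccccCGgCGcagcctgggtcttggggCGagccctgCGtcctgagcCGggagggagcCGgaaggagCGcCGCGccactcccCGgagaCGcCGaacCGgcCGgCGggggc
GATA1: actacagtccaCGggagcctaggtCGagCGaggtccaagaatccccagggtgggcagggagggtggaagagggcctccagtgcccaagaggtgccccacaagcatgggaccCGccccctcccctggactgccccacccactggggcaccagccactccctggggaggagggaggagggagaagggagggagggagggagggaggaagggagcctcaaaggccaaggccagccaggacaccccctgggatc
HOXD4: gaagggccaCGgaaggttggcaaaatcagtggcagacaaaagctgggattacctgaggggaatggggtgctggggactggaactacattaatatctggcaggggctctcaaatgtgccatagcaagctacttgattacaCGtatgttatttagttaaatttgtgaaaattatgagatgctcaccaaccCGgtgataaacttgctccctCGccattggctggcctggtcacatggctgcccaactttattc
KCNH2 intron: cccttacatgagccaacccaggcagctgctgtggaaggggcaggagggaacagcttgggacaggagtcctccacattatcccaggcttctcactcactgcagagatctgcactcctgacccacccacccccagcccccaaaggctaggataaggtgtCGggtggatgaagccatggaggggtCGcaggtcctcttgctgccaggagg
NUP214 region: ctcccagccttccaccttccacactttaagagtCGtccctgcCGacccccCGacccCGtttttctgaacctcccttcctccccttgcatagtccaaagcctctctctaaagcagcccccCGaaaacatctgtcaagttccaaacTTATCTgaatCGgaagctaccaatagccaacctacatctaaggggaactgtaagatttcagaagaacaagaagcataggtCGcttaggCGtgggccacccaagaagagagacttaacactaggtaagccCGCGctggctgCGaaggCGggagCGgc

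H3K27ac peaks lay over the PTPN7 sequence in all 16 libraries and over at least part of the FAM78A sequence in 15, with an H3K27me3 peak touching PTPN7 in 1 library and FAM78A in none. H3K27me3 peaks covered the FIBCD1 sequence whole in 4 of 4 libraries, and an H3K27ac peak reached it in 1 of 16. Over GATA1 the counts were 10 H3K27ac and 0 H3K27me3 libraries, and over HOXD4 they were 0 and 4. The KCNH2 stretch lay under H3K27ac in all 16 libraries and under H3K27me3 in none. The sequence at NUP214 was covered whole in all 20 libraries. The shown sequences range widely in CG, with 43 dinucleotides in FAM78A, 29 in FIBCD1, 7 in PTPN7 and 4 each in GATA1 and HOXD4. Over the promoters of the table that matched by symbol, the median CG count in the 250 bases was 19 for genes with H3K27ac in every library (349 promoters of 223 genes) and 14 for genes with H3K27me3 in every library (1634 promoters of 1096 genes), against 17 for all matched protein-coding genes and 11 for the whole table of 35116 promoters. AGATAA on either strand stood in 6.02% of the H3K27ac promoters and 6.61% of the H3K27me3 promoters, against 7.05% for all matched protein-coding genes and 9.17% of the table.

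The files hold peak lists and no read totals, so unique fragments per library after downsampling are not known here. Equal depth refers to read pairs before duplicates were removed. The paper reports duplication rates at the original depth. They were lower in each library of 11 cycles and column extraction than in all other libraries compared here. Their part in the results was not tested. Of 10 K562 markers, 10 had an H3K27ac peak at the promoter in at least 1 library (42.2% of all protein-coding promoters did) and 0 had H3K27me3 in all 4 (7.82% of all did). HBG1, a fetal globin gene, had H3K27ac in 13 of 16 libraries, KLF1 and TAL1 in 14 and GATA1 in 15, while 5 of the 10 had it in fewer than 8. Of 11 markers of other cell types, among them CD3E of T cells, CD79A of B cells and ALB of liver, none had H3K27ac in any library. H3K27me3 stood at 4 of these 11 in at least 1 library, against 26.4% of all promoters, and at KRT14, a skin keratin, in all 4. In summed peak signal the mitochondrial genome took 2.72 to 60.1% in H3K27ac lists and 0.892 to 2.39% in H3K27me3 lists, and the H3K27ac antibodies differed, with 2.72 to 10.8% in ab177178, 9.40 to 13.8% in ab4729, 30.1 to 53.9% in Active Motif and 37.3 to 60.1% in Diagenode libraries. In the 2 ab177178 libraries with 13 cycles and that with 11 cycles and SDS this share was 2.72, 2.87 and 2.93%. They gave 8219, 8161 and 10821 peaks on the nuclear chromosomes, and every H3K27me3 library gave at least 65339. The H3K27me3 lists also had a higher, less strict peak calling threshold, and the part of the mitochondrial share in the results below was not tested. Peaks on chromosomes 1 to 22, X and Y alone were used from here on. The H3K27me3 library of 11 cycles and column extraction stood apart from the other H3K27me3 libraries at promoters with H3K27ac, and the 2 ab177178 libraries of 11 cycles stood apart from the other H3K27ac libraries at promoters with H3K27me3. The counts of promoters with both marks are given with and without them.

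H3K27ac peaks were fewer, and H3K27me3 peaks covered far more of the genome. Per the paper the peak calling threshold is a proportion of top peaks, and it was higher, and so less strict, for H3K27me3. List length and covered length depend on it directly, and its part was not tested. H3K27ac lists held 3797 to 10821 peaks (6385 ± 2038, SD, n = 16), and H3K27me3 lists 65339 to 77684 (71510 ± 5360, SD, n = 4). The groups did not overlap. Within combinations of cycles and extraction the H3K27ac lists were 11.7-fold shorter on average (log2 ratio -3.55, SD over the 4 combinations 0.20, two-sided exact permutation test within combinations p = 0.0016, adjusted over 6 measures 0.0016). This p is the smallest that the test can give, and the same p held for each of the 6 measures, with the same sign in 4 of 4 combinations. The same 4 H3K27ac antibodies and 1 H3K27me3 antibody recur in each combination, while the test exchanges libraries in each combination separately. The signs and the p thus rest on 1 comparison of antibodies, and they do not measure the spread between antibodies of a mark. H3K27ac peaks covered 3.43 to 11.6 Mb and H3K27me3 peaks 46.4 to 63.3 Mb, or 1.62 to 2.21% of the known bases of the genome, a 7.92-fold difference (log2 ratio -2.98, SD 0.27). Among the H3K27ac antibodies ab177178 gave the longest lists, at 9085 ± 1241 peaks, and Diagenode and Active Motif the shortest, at 5297 ± 1615 and 5313 ± 1630 (SD, n = 4 each). The lowest peak in an H3K27ac list reached a coverage of 2 or 3 fragments, and that in each H3K27me3 list a coverage of 1. When each H3K27me3 list was cut to the top 10% of its peaks by summed signal, the lists were of like length by construction (log2 ratio -0.23, exact permutation p = 0.35), and the difference in covered length shrank to a log2 ratio of -0.96 (exact permutation p = 0.0032).

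**Figure D1:**
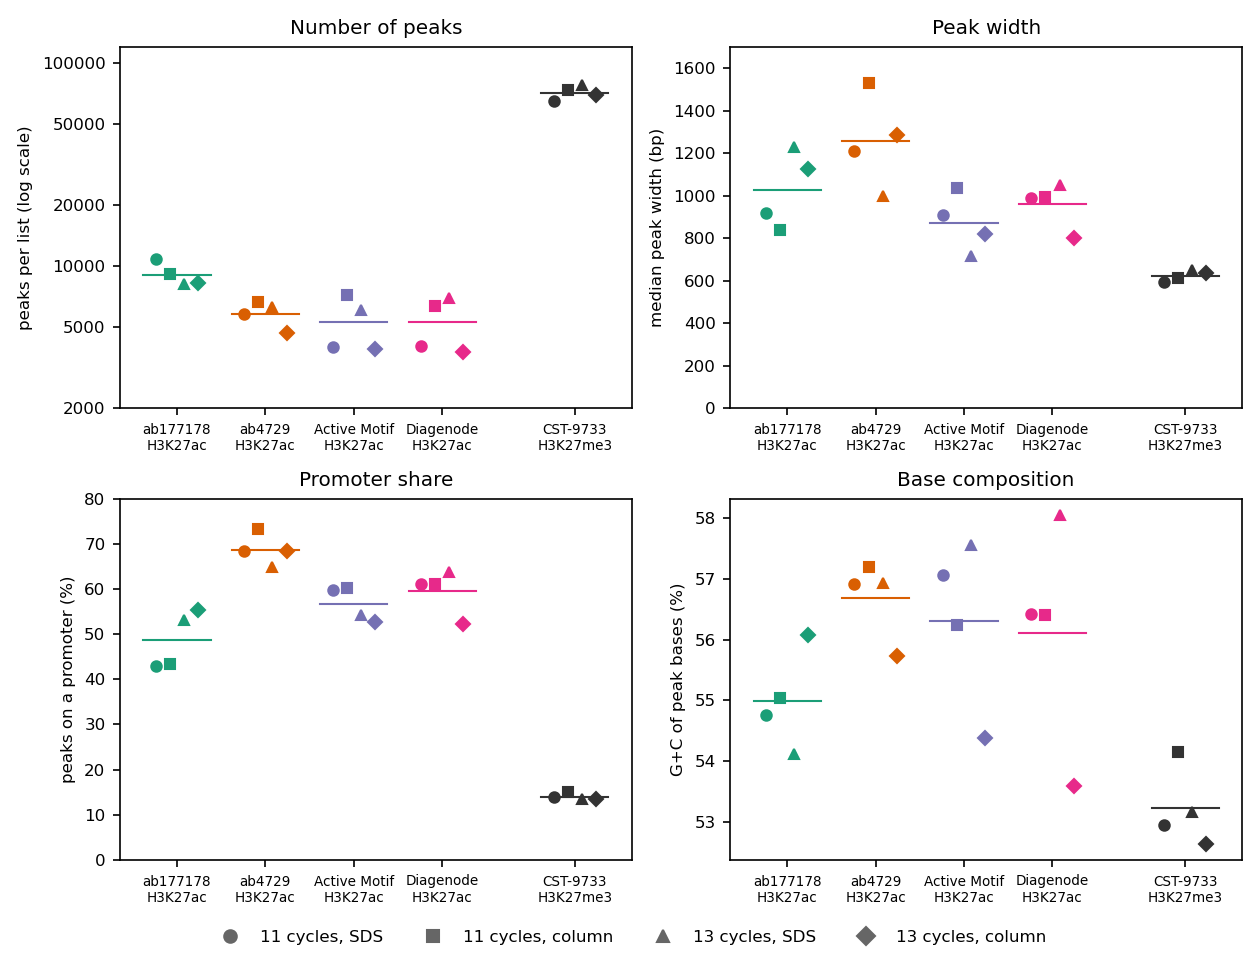
Peak number (log axis), median peak width in bp, promoter share in percent and GC content in percent of each list, by antibody, with the 4 H3K27ac antibodies left of CST-9733 for H3K27me3 and a marker shape for each combination of cycles and extraction. Each point is 1 library, and each line is the mean of an antibody. The H3K27me3 libraries sit at 65339 to 77684 peaks and 13.5 to 15.0% promoter share, away from every H3K27ac library, at 3797 to 10821 peaks and 43.1 to 73.3%.

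In the full lists the typical H3K27ac peak was wider than the typical H3K27me3 peak, and the direction depended on which peaks were compared. The paper reports wider peaks at a stricter threshold of the same peak caller, and its threshold for H3K27ac was the stricter one. The part of the threshold in the widths was not tested. Median width was 714 to 1530 bp in H3K27ac lists and 595 to 649 bp in H3K27me3 lists, 1.62-fold wider for H3K27ac (log2 ratio 0.70, SD 0.10, exact permutation p = 0.0016). With the strongest 50% of each list by summed signal it held (log2 ratio 0.60, exact permutation p = 0.0048). When the H3K27me3 lists alone were cut, with all H3K27ac peaks retained, it reversed, both for their top 10% (log2 ratio -0.70, exact permutation p = 0.0016) and for lists as long as the mean of the matched H3K27ac lists (log2 ratio -0.76, exact permutation p = 0.0016). In the second of these cuts the median H3K27me3 width was 1457 to 1856 bp. Summed signal adds coverage over the width of a peak, so a cut by it is not independent of width. Peaks under 500 bp made up 0.15 to 13.8% of H3K27ac lists and 22.98 to 30.5% of H3K27me3 lists. At the other end, each H3K27ac list held 4 to 34 peaks of 5 kb or more, and each H3K27me3 list 68 to 177. The widest single peak was 34500 bp for H3K27ac, in the ab177178 library of 11 cycles and SDS, and 47890 bp for H3K27me3, in the library of 13 cycles and column extraction. Peaks at promoters were slightly wider than the other peaks of the same list in all 20 libraries, for example 1251 against 1149 bp in the ab4729 library of 11 cycles and SDS and 634 against 589 bp in the H3K27me3 library of the same combination.

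H3K27ac peaks were concentrated at promoters and H3K27me3 peaks lay mostly inside and between genes. Promoters were taken as 1.5 kb up- and downstream of a gene's outermost annotated start, so internal promoters are not counted. On average 58.4 ± 8.5% of H3K27ac peaks (SD, n = 16) and 14.004 ± 0.716% of H3K27me3 peaks (SD, n = 4) overlapped one. The difference was 44.4 points (SD over combinations 0.77, exact permutation p = 0.0016). H3K27ac libraries ranged from 43.1 to 73.3% and H3K27me3 libraries from 13.5 to 15.0%. Among antibodies ab4729 had the highest share, 68.7 ± 3.4%, followed by Diagenode with 59.6 ± 5.0%, Active Motif with 56.8 ± 3.8% and ab177178 with 48.8 ± 6.4% (SD, n = 4 each). The ranges of neighbours in this order overlapped, except those of ab4729 and Diagenode. Of H3K27ac peaks 16.9 to 32.3% lay in the body of a protein-coding gene away from promoters and 9.84 to 25.9% outside both, against 44.8 to 45.6% and 39.8 to 41.2% of H3K27me3 peaks. The median distance of a peak to the nearest protein-coding start was 0.651 to 14.2 kb for H3K27ac and 41.4 to 42.3 kb for H3K27me3. With the H3K27me3 lists alone cut to the length of the matched H3K27ac lists their promoter share was 23.4 to 25.8%, and the difference of 34.1 points was still past the threshold (exact permutation p = 0.0016).

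The DNA under both marks was richer in G and C than the genome, at 40.9%. Peaks held 53.6 to 58.1% GC in H3K27ac libraries and 52.6 to 54.1% in H3K27me3 libraries, 2.81 points more for H3K27ac (SD 0.72, exact permutation p = 0.0016). The ranges overlapped, since the Diagenode library of 13 cycles and column extraction had 53.6% and the H3K27me3 library of 11 cycles and column extraction 54.1%. With the strongest 50% of each list the difference was 1.68 points (exact permutation p = 0.0224). With the H3K27me3 lists alone cut to their strongest 10% it was 0.14 points (exact permutation p = 0.84). The ratio of observed to expected CG dinucleotides separated the marks without overlap, at 0.44 to 0.62 for H3K27ac and 0.297 to 0.315 for H3K27me3.

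Lists of the same mark shared far more bases than lists of different marks. As the share of all covered bases that both lists covered, pairs of H3K27ac lists shared 13.9 to 37.7% (median 22.6%, 120 pairs), pairs of H3K27me3 lists 22.8 to 28.2% (6 pairs) and pairs of 1 H3K27ac and 1 H3K27me3 list 0.165 to 2.56% (median 0.485%, 64 pairs). No pair across marks reached the lowest pair within a mark. Within combinations the H3K27ac pairs exceeded the pairs across marks by 22.9 points (SD 2.99, exact permutation p = 0.0016). This share cannot exceed the covered length of the shorter list over that of the longer. H3K27ac lists covered 3.43 to 11.6 Mb and H3K27me3 lists 46.4 to 63.3 Mb. For the smallest H3K27ac lists this limit lay below the lowest pair within a mark, so covered length alone set part of the gap. Counted as peaks of the shorter list that met the other list, the overlap was 40.4 to 73.0% within H3K27ac and 49.0 to 55.5% within H3K27me3, against 2.62 to 25.2% between the marks. Lists of 1 H3K27ac antibody shared 31.1 ± 3.3% of bases for ab4729, 26.1 ± 5.9% for ab177178, 23.8 ± 5.0% for Diagenode and 22.3 ± 1.8% for Active Motif (SD over 6 pairs each, which share libraries).

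**Figure D2:**
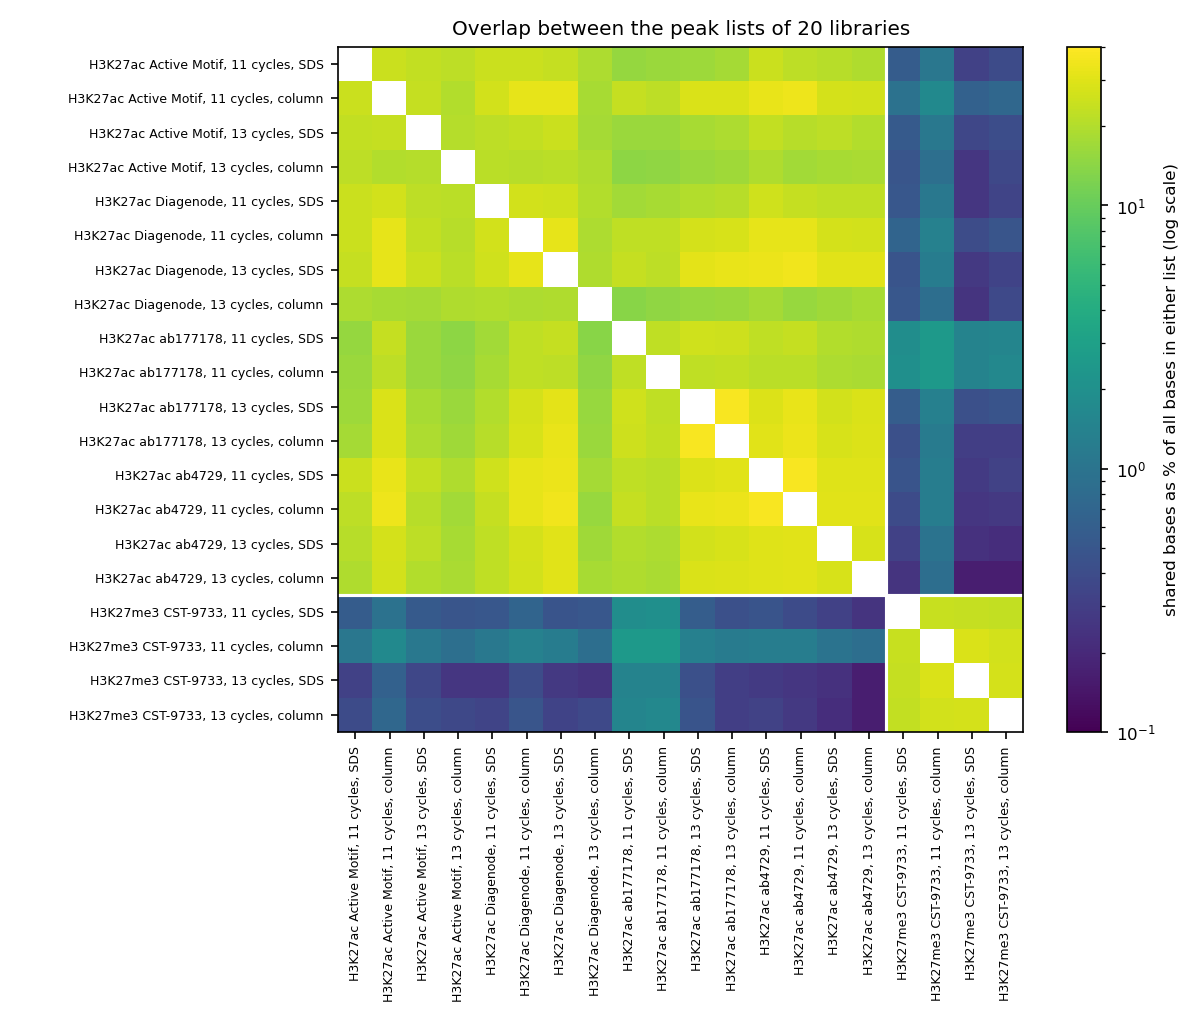
Percent of covered bases that 2 lists share (colour, log scale) for all pairs of the 20 libraries, H3K27ac first and H3K27me3 last on both axes. The H3K27ac block lies at 13.9 to 37.7%, the H3K27me3 block at 22.8 to 28.2%, and the fields between the marks at 0.165 to 2.56%.

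The share of H3K27ac peaks that met H3K27me3 was highest with 1 H3K27me3 library, and it also differed between H3K27ac libraries. In the combination of 11 cycles and column extraction, 24.6% of ab177178, 21.6% of Active Motif, 20.3% of Diagenode and 19.3% of ab4729 peaks overlapped an H3K27me3 peak of that combination by at least 1 bp. In the other 3 combinations the 12 H3K27ac libraries lay between 2.85 and 11.2%. In bases, 1.52 to 18.6% of the length of H3K27ac peaks lay under H3K27me3, where the H3K27me3 peaks covered 1.62 to 2.21% of the known genome. The ab177178 library of 11 cycles and SDS, matched to another H3K27me3 library, had 9.23%. This was more than the 7.64% of ab4729 with 11 cycles and column extraction. The other way round, 0.20 to 3.19% of the H3K27me3 peaks met an H3K27ac peak of their combination. Of the shared H3K27ac peaks, 40.5 to 69.9% were at promoters in the combination of 11 cycles and column extraction and 16.9 to 42.9% in the others. Without this H3K27me3 library the excess of overlap within H3K27ac over that between marks was 21.9 points, and the promoter share difference was 44.4 points.

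H3K27ac peaks were distributed over the chromosomes differently from H3K27me3 peaks. Of 24 chromosomes, 5 (20.8%) had a higher share of the H3K27ac peaks and 10 (41.7%) a lower one at an adjusted p under 0.05 (exact permutation test, Benjamini-Hochberg over 24). Chromosome 19, the chromosome richest in genes for its length, had the largest difference, with 5.66 ± 1.56% of H3K27ac peaks (SD, n = 16) and 2.38 ± 0.14% of H3K27me3 peaks (SD, n = 4), a 2.38-fold excess (adjusted exact permutation p = 0.00427). Its H3K27ac share was 6.21 to 8.59% in Active Motif libraries and 3.30 to 3.84% in ab177178 libraries, and each exceeded the highest H3K27me3 share of 2.58%. Chromosomes 1, 3 and 6 were also higher, with 12.6% against 11.5%, 5.70% against 4.52% and 7.98% against 6.79% of peaks. The share of chromosome Y, 0.44% against 0.07%, rests on 413 and 201 peaks in all. Chromosomes 2, 8, 10, 13, 15, 16, 17, 18, 20 and 21 had lower shares for H3K27ac, for example chromosome 20 with 1.97% against 3.05% and chromosome 13 with 1.00% against 1.54%. Chromosome 22 had 3.32 ± 1.25% of H3K27ac peaks and 2.93 ± 0.12% of H3K27me3 peaks and did not pass (adjusted exact permutation p = 0.76). Its H3K27ac share was 6.14 and 6.35% in the ab177178 libraries of 11 cycles, against 1.99 to 4.19% in the other 14. Copy number differs between chromosome regions of K562 and was not measured here, so its part in these shares was not tested. Without the H3K27me3 library of 11 cycles and column extraction 10 chromosomes passed in place of 15, and without any other H3K27me3 library 12 or 13 did. Leaving out any 1 of them raises the smallest possible exact permutation p from 0.0016 to 0.008.

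**Figure D3:**
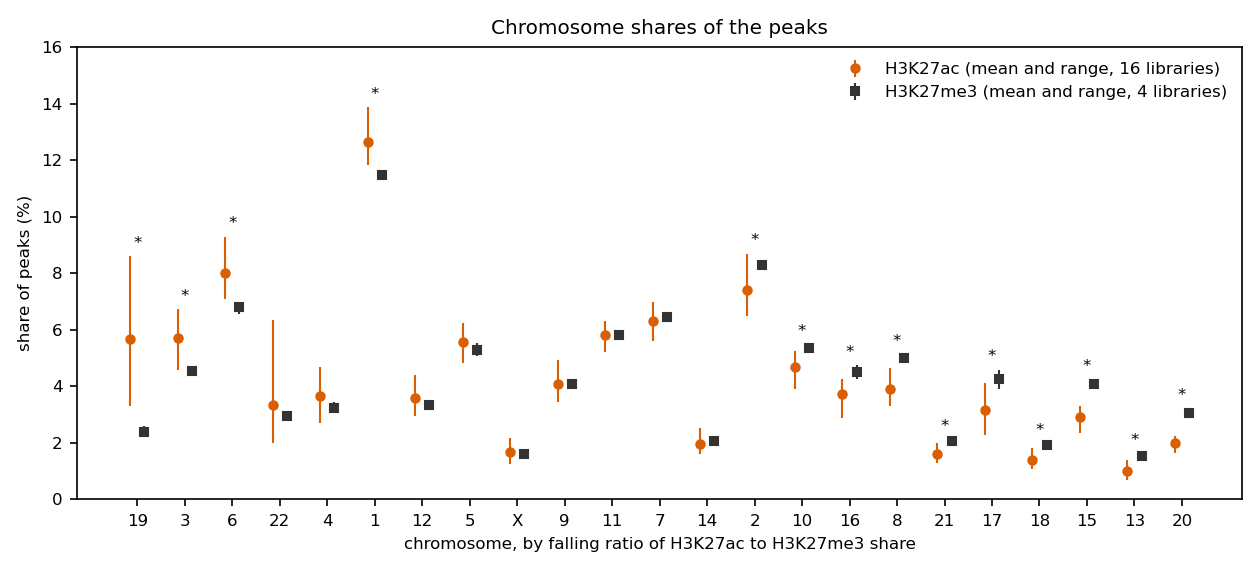
Percent of the peaks of a list on each chromosome (Y is not drawn, and the others are ordered by falling ratio of the H3K27ac to the H3K27me3 share), as the mean (point) and range (line) over the 16 H3K27ac libraries, left of the same for the 4 H3K27me3 libraries. An asterisk marks an adjusted p under 0.05. Chromosome 19 stands out with 5.66% of H3K27ac and 2.38% of H3K27me3 peaks.

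At this depth few promoters had H3K27ac in every library. Of 20162 protein-coding promoters, 266 (1.32%) had an H3K27ac peak in 16 of 16 libraries and 1577 (7.82%) an H3K27me3 peak in 4 of 4. The numbers of libraries differ, and more lists leave fewer promoters. With H3K27me3 lists cut to their top 10% or to the length of the matched H3K27ac lists, 331 and 307 promoters had H3K27me3 in every library. Over the 4 libraries of 1 antibody, H3K27ac stood in each at 1450 promoters (7.19%) for ab177178, 1636 (8.11%) for ab4729, 731 (3.63%) for Active Motif and 766 (3.8%) for Diagenode. In at least 1 library 8518 promoters (42.2%) had H3K27ac and 5324 (26.4%) had H3K27me3, and 7814 (38.8%) had neither. A single H3K27ac library called 1719 to 5126 promoters. The H3K27me3 libraries called 2685 (13.3%) with 11 cycles and SDS, 3928 (19.5%) with 11 cycles and column, 3000 (14.9%) with 13 cycles and SDS and 2619 (13%) with 13 cycles and column. Without the H3K27me3 library of 11 cycles and column extraction, 1711 promoters had H3K27me3 in the other 3, and 4000 (19.8%) had it in at least 1 of them.

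Most promoters with H3K27me3 in every library had no H3K27ac peak, while 1 H3K27me3 library had a peak at most promoters with H3K27ac in every library. Of the 1577 promoters with H3K27me3 in every library, 1437 (91.1%) had no H3K27ac peak in any of 16 libraries, against 57.8% of all promoters, 91 had one in exactly 1 and 8 in at least 8. Without the 2 ab177178 libraries of 11 cycles, 1524 (96.6%) had none, against 59.9% of all promoters, 22 had one in exactly 1 and 7 in at least 8. A single H3K27ac library called 4.63 and 4.76% of them where it was ab177178 with 11 cycles, and 0.38 to 1.97% in the other 14 libraries. Of the 266 promoters with H3K27ac in every library, 100 had no H3K27me3 peak, 145 had one in exactly 1 library, 12 in 2 and 7 in 3. The H3K27me3 library of 11 cycles and column extraction had a peak at 155 of the 266 (58.3%), against 16 (6.02%), 19 (7.14%) and 8 (3.01%) in the libraries of 11 cycles and SDS, 13 cycles and SDS, and 13 cycles and column. Over all promoters these libraries called 19.5%, and 13.3, 14.9 and 13%, in the same order. It was the lone library in 134 of the 145 cases. With it 166 of the 266 (62.4%) had any H3K27me3 peak, against 26.4% of all promoters. Without it 32 (12.03%) had one, against 19.8% of all promoters. Both marks stood at the promoter in all 20 libraries for 2 genes (0.00992%), FAM86B1 and NUP214, with and without that library. FAM86B1 has near-identical copies in the genome, so its reads may belong to another copy.

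**Figure D4:**
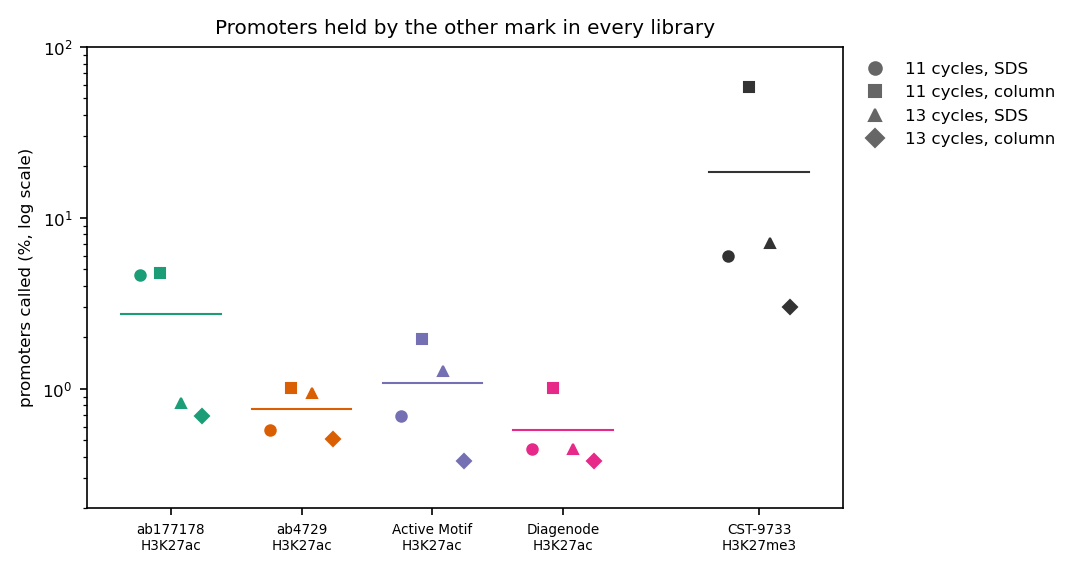
Percent of the promoters held by the other mark in every library that a library also called (log axis), by antibody, for H3K27ac libraries (of 1577 H3K27me3 promoters) and, at the right, H3K27me3 libraries (of 266 H3K27ac promoters). Points are libraries, shapes are cycles and extraction, and lines are means. The H3K27me3 library of 11 cycles and column extraction reaches 58.3%, and every other library lies at 7.14% or less.

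Genes were ranked by the percentile of the promoter peak's summed signal within its list, where 100 is the strongest peak. FAM78A led the H3K27ac genes, with percentiles of 98.6 to 100.0 (median 99.8) over 16 libraries and a median peak width of 5541 bp. An H3K27me3 peak stood there in 1 of 4 libraries, that of 11 cycles and column extraction, at percentile 47.7. The lowest FAM78A percentile came from Active Motif with 13 cycles and column extraction, and no library had a promoter peak there outside its top 2%. PTPN7 followed with 97.9 to 100.0 (median 99.7) and a width of 6234 bp, with H3K27me3 at percentiles 31.1, 78.8 and 3.55 in 3 libraries and none in that of 13 cycles and column extraction. NUP214, a protein of the nuclear pore, ranked at 95.8 to 99.9 (median 99.4) for H3K27ac. Its H3K27me3 peak was at percentile 61.9 with 11 cycles and SDS, 97.2 with 11 cycles and column, 67.6 with 13 cycles and SDS and 73.9 with 13 cycles and column. PRAME, an antigen of tumour and testis cells, ranked at 91.2 to 99.9, and PRCC, a fusion partner gene in kidney cancer, at 75.7 to 99.7. The Fas-activated kinase gene FASTK, its neighbour TMUB1 and the zinc finger gene ZNF595 were also among the top 10, with lowest percentiles of 89.9, 87.6 and 88.5. Each of these 3 had H3K27me3 in 1 library.

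FIBCD1 led the H3K27me3 genes, with percentiles of 99.99 to 100 in the 4 libraries and peak widths of 12163, 33010, 33878 and 47890 bp. H3K27me3 peaks covered 99.5 to 100% of the 36.8 kb of FIBCD1. An H3K27ac peak stood at its promoter in 4 of 16 libraries, 2 of them ab177178 with 11 cycles, at percentiles 98.4 and 97.0. QRFP, a neuropeptide gene beside it, had H3K27me3 at percentiles 99.9 to 100.0 and H3K27ac in 5 libraries. LAMC3, a laminin chain, had H3K27me3 percentiles from 99.97 to 99.99, with 88.7 to 95.02% of its 85.3 kb covered, and H3K27ac in 1 library. The other 7 of the top 10 were TAF11L4, TAF11L5, TAF11L6, REXO1L1, FAM90A11P, FAM90A12P and FAM90A24P, all members of repeated gene families with near-identical copies, whose signal cannot be assigned to 1 copy. The 250 bases before TAF11L4, for example, were found 4 times on chromosome 5.

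Some of the strongest genes lay close together, and 3 chromosome windows are described here, whose limits were set after the values were seen. Of the top 10 genes, 2 for H3K27ac and 3 for H3K27me3 were on chromosome 9 and 3 for H3K27ac on chromosome 22. The others were on chromosomes 1, 4 and 7 for H3K27ac and 5 and 8 for H3K27me3, outside these windows. In 2 Mb of chromosome 9 with 23 protein-coding genes, 2 (FAM78A and NUP214) had H3K27ac in every library and 7 had H3K27me3 in every library, among them FIBCD1, QRFP, LAMC3, PRDM12 and NUP214. In chr22:19-24 Mb, with 79 genes, 25 (31.6%) had H3K27ac and 25 (31.6%) had H3K27me3 in every library, against 1.32 and 7.82% of all genes. All 25 chromosome 22 genes with H3K27ac in every library lay there, such as PRAME, CDC45 (a replication helicase factor) and the adaptor CRKL. The H3K27me3 genes of the window included CLDN5, a tight junction protein, TBX1, a T-box factor, and GNAZ, a G protein subunit. In 11 of the 79 genes H3K27me3 peaks covered at least 50% of the length in all 4 libraries. K562 is known to carry extra copies of parts of 9q34 and 22q11 around the BCR-ABL1 fusion. Copy number was not measured here and its part was not tested. In chr6:30-34 Mb, which holds the MHC, 15 of 162 genes (9.26%) had H3K27ac and 12 (7.41%) had H3K27me3 in every library, among them the heat shock genes HSPA1A and HSPA1B, which are near-identical, for H3K27ac. Chromosome 1 held 64 of the 266 H3K27ac genes (24.1%, against 10.4% of all genes) and 205 of the 1577 H3K27me3 genes (13.0%). Chromosomes 13, 17, X and Y, with 322, 1189, 869 and 64 protein-coding genes, held no gene with H3K27ac in every library. H3K27me3 stood in every library at 22, 76, 24 and 0 of their genes. These were 1.40, 4.82, 1.52 and 0% of all such H3K27me3 genes, where the chromosomes hold 1.60, 5.90, 4.31 and 0.317% of all protein-coding genes.

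The regions under peaks in every library differed in size and place in the same way. Bases common to all 16 H3K27ac lists formed 382 regions of 0.175 Mb, 59.2% of them at promoters, and bases common to the 4 H3K27me3 lists formed 23611 regions of 9.78 Mb, 17.2% at promoters. The widest H3K27ac region (3.07 kb, chr9:134148571-134151639) lay at FAM78A. The widest H3K27me3 region (18.6 kb, chr9:133785212-133803820) lay inside FIBCD1, followed by 13.2 kb in LAMC3, 12.2 kb over the FIBCD1 start, 10.4 kb in GNAZ and RSPH14 and 9.38 kb near LAMC3. H3K27me3 peaks covered at least 50% of the length of 160 genes (0.794%) in all 4 libraries. These genes were short, with a median length of 3.801 kb against 27.2 kb for all protein-coding genes. The criterion itself favours short genes, since the median H3K27me3 peak was 595 to 649 bp wide. Several were TBC1D3 genes of chromosome 17, a repeated family. Of the 160, 113 (70.6%, against 57.8% of all) had no H3K27ac peak at the promoter in any library. RSPH14, a radial spoke protein of cilia, was the longest at 85.6 kb.

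Away from promoters 156 regions lay under H3K27ac in all 16 libraries, 67 of them inside a protein-coding gene. Of these 156, 68 met no H3K27me3 peak and 34 were in all 20 lists. The KCNH2 stretch printed above was the best-ranked region of at least 200 bp with no H3K27me3 peak, at a median percentile of 99.3 and 45.1 in its lowest library. It lay in an intron, 21.8 kb from the nearest protein-coding start. In total 50 regions on 18 chromosomes were common to all 20 lists. Of these, 28 lay more than 100 kb from any protein-coding start, 9 were on chromosome 4 and 8 on chromosome 10, mostly beside the centromeres, and others lay at chromosome ends. Only 2 were at protein-coding promoters, those of NUP214 (chr9:134000458-134000864) and FAM86B1. Regions known to collect reads in many assays were not removed from the lists. With the 50 regions taken out, the promoter share difference was 44.7 points and 0 promoters had both marks in every library.

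Many developmental regulators carried H3K27me3 in every library. The lists were drawn up by gene symbol, and the median gene of the genome had 0 libraries of either mark. Of 39 HOX cluster genes, 20 (51.3%) had H3K27me3 in all 4 libraries, against 7.82% of all genes, 26 had it in at least 1, and the median gene had it in 4. None had H3K27ac in all 16, where 1.32% of all genes had it, and 6 (15.4%) had it in at least 1, against 42.2% of all genes. The 4 clusters split. In HOXA 8 of 11 and in HOXD 8 of 9 genes had H3K27me3 in 4 libraries, the other genes of both clusters in 3, and none had H3K27ac. In HOXC the genes at one end, HOXC11, HOXC12 and HOXC13, had H3K27me3 in 4 libraries, while HOXC4 and HOXC9 had H3K27ac in 6 and 5 libraries. In HOXB only HOXB13 had H3K27me3, in 4 libraries, and 4 of 10 genes had H3K27ac, HOXB2 in 13, HOXB4 in 8, HOXB9 in 7 and HOXB7 in 2 libraries. No HOX gene (0 of 39) had each mark in at least 1 library, against 7.41% of all genes. The strongest H3K27me3 peaks of the family were at HOXD4 (percentiles 99.0 to 99.9), HOXD12 (99.0 to 99.7) and HOXD11 (97.0 to 99.7).

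Over all protein-coding genes H3K27me3 stood in all 4 libraries at 7.82% and H3K27ac in at least 1 library at 42.2%, and the lists of other developmental regulators are read against these shares. Of 9 PAX genes 6 (66.7%) had H3K27me3 in all 4 libraries and 0 had any H3K27ac peak, with PAX2, a kidney factor, PAX7, a muscle stem cell factor, and PAX6, the eye regulator, at median percentiles of 98.4, 97.2 and 94.9. Among 40 LIM, NK, IRX, DLX and related homeobox genes 18 (45%) had H3K27me3 in all 4, led by LHX5, DLX5 and LHX1, and 6 had H3K27ac in some library, DLX1 in 8. Of 16 T-box genes 7 (43.8%) had H3K27me3 in all 4, among them TBX5 of the heart and TBXT, the mesoderm factor brachyury. TBX18 differed, with H3K27ac in 14 libraries and H3K27me3 in 1, and TBX1 had H3K27me3 in 4 and H3K27ac in 4. Of 20 neural bHLH genes 8 (40%) had H3K27me3 in all 4, such as OLIG2 and NEUROD1. SOX and forkhead genes had it at 3 of 19 (15.8%) and 10 of 52 (19.2%), and 3 and 14 of them had H3K27ac in at least 1 library, SOX6, which acts in red cell maturation, in 14. Of 6 GATA genes GATA1 had H3K27ac in 15 libraries and GATA2, its counterpart in progenitors, in 8, neither with H3K27me3. GATA3 of T cells had H3K27me3 in 4, and GATA4 and GATA6 of heart and gut had it in 3.

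Signalling and channel lists differed in H3K27me3, which stood in all 4 libraries at 7.82% of all genes. Of 19 WNT ligand genes 8 (42.1%) had H3K27me3 in all 4 libraries, with WNT3A at a median percentile of 99.8, and 0 had H3K27ac. Of 21 BMP and GDF genes 5 (23.8%) had H3K27me3 in all 4, as BMP6 and BMP7 did, and 4 had H3K27ac, GDF15, a stress cytokine, in 15 libraries. The FGF ligands, with 2 of 22 (9.09%), and the Frizzled receptors, with 1 of 10, were near the share of all genes. Of 40 calcium and sodium channel subunit genes 13 (32.5%), of 94 potassium channel genes 16 (17.0%) and of 58 neurotransmitter receptor channel genes 8 (13.8%) had H3K27me3 in all 4. KCNN4, the calcium-activated potassium channel of red cells, had H3K27ac in 14 libraries and no H3K27me3. Of 44 collagen genes 2 (4.55%) had H3K27ac in any library, against 42.2% of all genes, 10 (22.7%) had H3K27me3 in all 4 and 32 (72.7%, against 26.4% of all genes) in at least 1.

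Gene families of other tissues differed from each other. Over all genes H3K27ac stood in at least 1 library at 42.2%, and H3K27me3 in all 4 at 7.82% and in at least 1 at 26.4%. Keratin and keratin-associated genes had H3K27me3 in all 4 libraries at 23 of 149 promoters (15.4%), KRT14 among them, while KRT8 and KRT18, the keratins of simple epithelia, share their start region and had H3K27ac in 12 libraries each. Olfactory receptor genes had H3K27ac in at least 1 library at 8 of 399 promoters (2.01%), and H3K27me3 in at least 1 at 40 (10.03%) and in all 4 at 6 (1.504%). Liver secretory genes, such as APOB, had 0 of 20 with H3K27ac in any library, 0 with H3K27me3 in all 4 and 4 (20%) with H3K27me3 in at least 1. Of 53 clustered protocadherin genes 0 had H3K27ac in any library, and 3 (5.66%), near the share of all genes, had H3K27me3 in all 4. Of 246 zinc finger genes of chromosome 19, 86 (35.0%) had H3K27ac in at least 1 library, while H3K27me3 stood in at least 1 library at 11 (4.47%) and in all 4 at 1, ZNF574. Of 13 MHC class II genes HLA-DMA, which loads peptides, had H3K27ac in all 16 libraries and no H3K27me3, while HLA-DQB2, HLA-DOA and HLA-DPA1 had H3K27me3 in all 4 and no H3K27ac. The other 12 class II genes had no H3K27ac peak in any library.

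Erythroid genes carried H3K27ac in many libraries but in all 16 only at a few promoters. Of 20 erythroid and stem cell factor genes 17 (85.0%, against 42.2% of all genes) had H3K27ac in at least 1 library, with a median of 9 libraries, and LYL1, a bHLH factor related to TAL1, had it in all 16. NFE2, STAT5B and GATA1 had it in 15, and TAL1 and KLF1 in 14. FLI1, a factor of the megakaryocyte lineage, and BCL11A, the repressor of fetal globin, had H3K27me3 in all 4 libraries and no H3K27ac. Of 10 globin genes 9 had H3K27ac in at least 1 library, HBM in 14, HBG1 in 13 and HBZ in 10, while HBB, the adult beta globin gene, had none. A globin promoter had H3K27me3 once, at HBG1 in 1 library. Of 10 heme synthesis genes PPOX had H3K27ac in all 16 and UROD in 13, and ALAS2, whose annotated outermost start was used, had none. Among 18 red cell membrane and iron genes FTL (ferritin light chain), GYPC and TFR2 had H3K27ac in 15, and ANK1, an ankyrin with several promoters, had H3K27me3 in 4 at its outermost start.

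Household genes had H3K27ac in at least 1 library at most promoters, where 42.2% of all genes had it, and H3K27me3 in all 4 at almost none, where 7.82% of all genes had it. H3K27ac stood in at least 1 library at 67 of 77 cytosolic and 69 of 78 mitochondrial ribosomal protein genes, 66 of 83 oxidative phosphorylation genes, 38 of 45 splicing factor genes and 17 of 20 cytosolic tRNA synthetase genes. These are 87.0, 88.5, 79.5, 84.4 and 85.0%. In all 16 libraries the counts were 2, 1, 3, 3 and 2 in the same order (2.597, 1.28, 3.61, 6.67 and 10.0%), against 1.32% of all genes, for example RPL27A, RPL37, MRPL18, UQCRH and HNRNPU. Per antibody and over 4 libraries the cytosolic ribosomal protein genes called in each were 16 for ab177178, 15 for ab4729, 6 for Active Motif and 8 for Diagenode. None of these 5 lists had a gene with H3K27me3 in all 4. Of 48 proteasome genes 1 did, PSMG4, and PSMB8 and PSMB9, the immunoproteasome subunits in the MHC, had H3K27me3 in 3 and 2 libraries and no H3K27ac. Of 30 genes of PRC2 and PRC1, which set and read H3K27me3, 19 had H3K27ac in at least 1 library, EZH2 in 13, and 0 had H3K27me3 in all 4. Of 31 acetyltransferase and deacetylase genes 22 had H3K27ac in at least 1 and 0 had H3K27me3 in all 4.

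**Figure D5:**
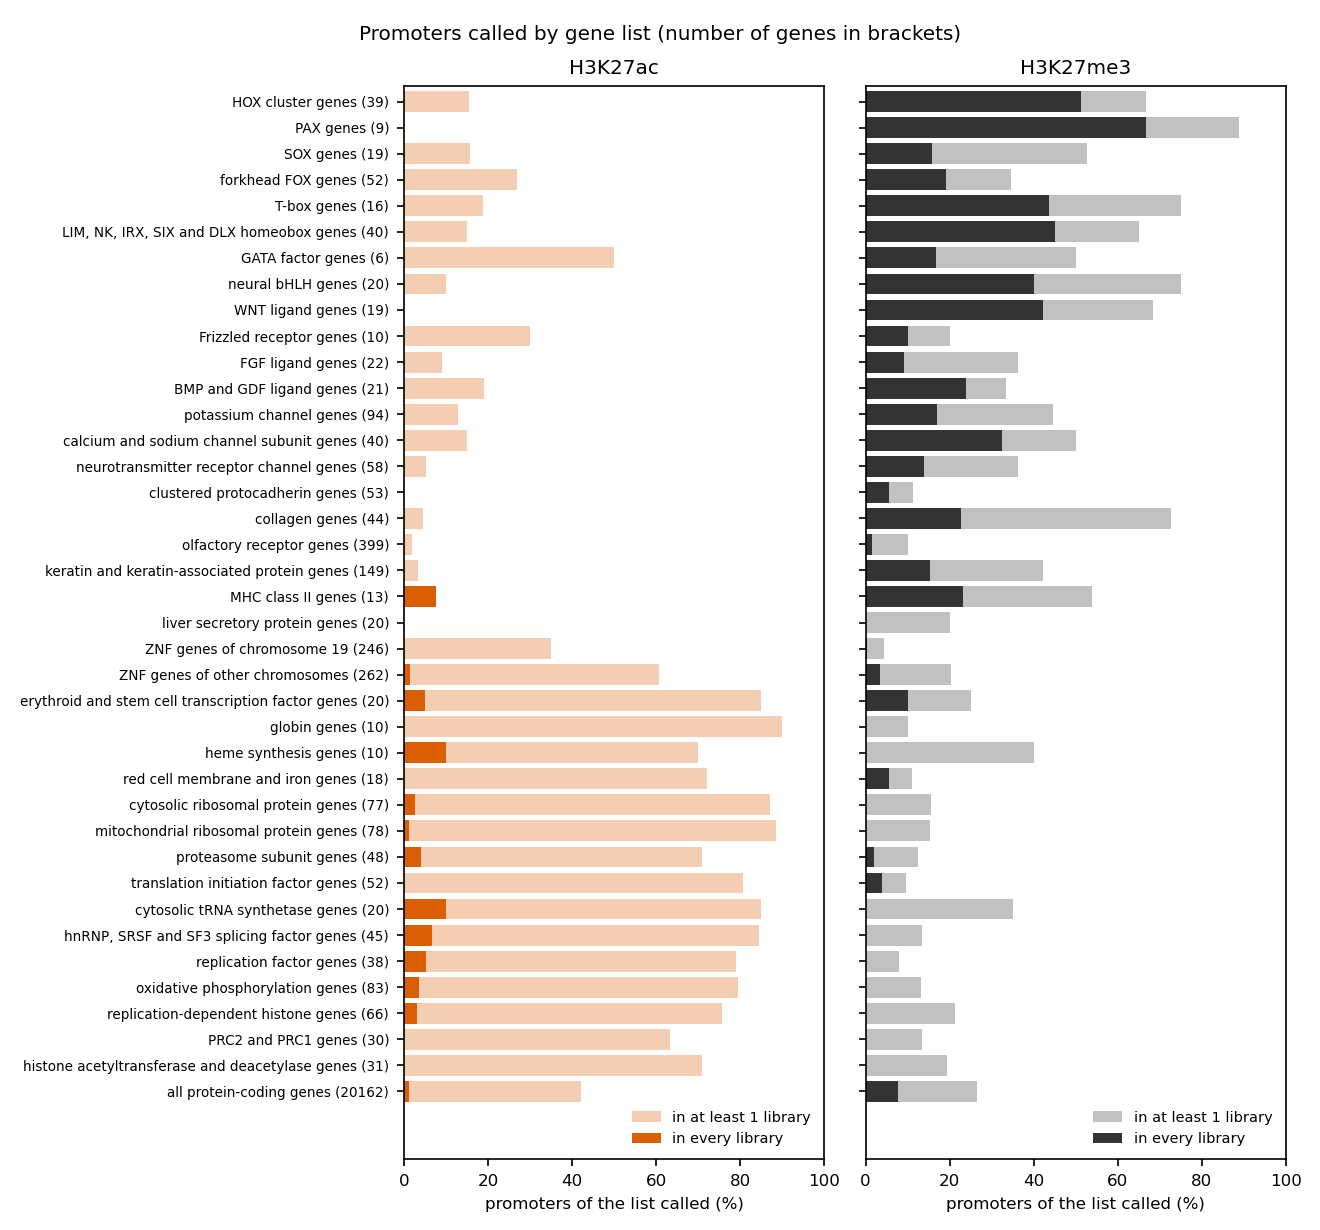
Percent of the members of each gene list with H3K27ac (left panel) and with H3K27me3 (right panel) at the promoter, in every library (dark) and in at least 1 library (light), with all protein-coding genes in the lowest bar. HOX and PAX genes reach 51.3 and 66.7% with H3K27me3 in all 4 libraries and 0% with H3K27ac in all 16, and ribosomal protein genes 0% with H3K27me3 in all 4.

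The promoters of every library were looked up in the 8 libraries that the authors made for benchmarking, with the same antibodies apart from Active Motif and not part of this downsampling. All 8 had SDS-based extraction and more PCR cycles than any equal-depth library. Cycles and depth thus differ between the sets, and their part in the counts below was not tested. All 266 H3K27ac promoters were called in each of the 6 H3K27ac benchmark lists. A single one of these lists called 36.5 to 46.8% of all promoters, with 32.8% called in all 6 and 49.3% in at least 1. Of the 1577 H3K27me3 promoters 1575 were called in both H3K27me3 lists. Over all promoters 21.3% were called in both of these lists and 27.1% in at least 1. Singly, the lists called 4838 and 4933 of the 20162 protein-coding promoters, at most 24.5%. The other mark was also looked up. The H3K27ac benchmark lists called 11 to 40 (0.70 to 2.54%) of the H3K27me3 promoters, and the H3K27me3 benchmark lists called 43 and 41 (16.2 and 15.4%) of the H3K27ac promoters. Of the equal-depth H3K27me3 libraries that of 11 cycles and column extraction, at 58.3%, was above both, and the other 3, at 3.01 to 7.14%, were below both. PTPN7, with H3K27me3 in 3 of the 4 equal-depth libraries, had none in either benchmark list, and NUP214 and FAM86B1 had H3K27ac in all 6 and H3K27me3 in both H3K27me3 lists.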

How the data were processed

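K562 peak lists of 20 libraries were analysed. According to the study's methods and the submitters' processing notes, the authors trimmed reads with Trim Galore (0.6.6), mapped them with Bowtie2 (2.2.9) to hg19, marked and dropped duplicates with Picard (2.6.0), used SAMtools (1.3.1) and bedtools (2.25.0), downsampled to a shared number of read pairs and called peaks per library with SEACR, without pooling. The signal columns as deposited hold the authors' summed and maximum fragment coverage of each peak. They were used to rank peaks within a list, and for the mitochondrial share of signal and the lowest peak coverage of each list. For the SEACR mode the study names both the stringent setting and a command with the word non-stringent, and this was not settled here. The H3K27me3 lists had a higher, less strict threshold. The paper removed peaks in blacklisted regions before its own later analyses, and no such removal was made from the lists used here.

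Of 391863 deposited peaks, the 388203 outside the mitochondrial genome and unplaced sequence were analysed. Coordinates are 1-based in GRCh37, and 0 peaks ran past a chromosome end. Of 64440 genes of the GENCODE annotation, 20162 were protein-coding. Peaks met a promoter or another peak at 1 bp. Measures were tested by a two-sided exact permutation within the 4 combinations of cycles and extraction (625 arrangements), with Benjamini-Hochberg adjustment over 6 measures or 24 chromosomes. On simulated data this test called 4.25% of 400 sets without a difference and 100% with one of 3 SD. The simulated libraries were independent, while the antibodies of the data recur across combinations. Named genes are the 10 of each mark with the highest median percentile, up to 3 members and exceptions of each of 38 gene lists, genes at the 5 widest regions and those with both marks. HOX, globin, erythroid, red cell and heme genes beyond this rule, and the genes of the windows, were named after their values were seen. Some items that the rule names are not reported here. The members and lists were chosen with earlier results of these data known. Python 3.11.15, numpy 2.4.6, pandas 2.3.3, matplotlib 3.10.9 and bedtools 2.31.1 were used. MACS2 lists were not used.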

Additional observations from a re-analysis of the deposited data

Results flagged for a closer look

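The H3K27me3 library of 11 cycles and column extraction had a peak at 58.3% of the promoters with H3K27ac in all 16 libraries, and its gap to the nearest of the other 3 was 0.925 of the range, above Dixon's 95% critical value for 4 samples. It was the 1 of 10 measures of the H3K27me3 libraries past this value, and chance puts about 1 group in 20 past it. The cause was not tested.

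Peaks on the mitochondrial genome, which no comparison uses, took up to 60.1% of the summed peak signal of an H3K27ac library (Diagenode, 13 cycles, column extraction), against at most 2.39% in an H3K27me3 library. The study has no library without an antibody in this set, and the part of this share in the lists was not tested.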

How the results depend on the processing

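No paired analysis was possible because the libraries of the marks share no replicate number in the labels, and matching by cycles and extraction is part of the test itself. Of 195 alternatives, 166 kept direction and side of the threshold (counts within 1.5 times), 22 moved, 5 became weaker and 2 reversed. Both reversals concern the median width with H3K27me3 lists cut to their top 10% (-0.70) or to the length of the matched H3K27ac lists (-0.76). With these cuts the peak number (-0.23 and -0.057) and GC (0.14 and 0.043 points) no longer passed, H3K27me3 stood in every library at 331 and 307 promoters, and both marks at 0. On column libraries alone the log2 ratio of width was 0.72 (exact permutation p = 0.08, where the smallest possible is 0.04). No chromosome (0) passed on SDS, column, 11-cycle or 13-cycle libraries alone. A smallest p of 0.04 passes adjustment over 24 only if most chromosomes reach it. The strongest 50% of each list gave 94 promoters with H3K27ac and 1026 with H3K27me3 in every library. H3K27ac in every library counted 446 promoters without Active Motif, 574 on SDS, 424 on column, 622 on 11-cycle and 424 on 13-cycle libraries, and both marks 7, 6, 23 and 4 on these 4 sets. Both marks fell to 0 with the regions of all 20 lists removed, and counted 2 to 6 when leaving out 1 H3K27me3 library. Leaving out the 2 ab177178 libraries of 11 cycles, an alternative chosen after seeing the data, gave 312 promoters with H3K27ac, an overlap excess of 25.2 points and a promoter share difference of 47.03 points. The 4 libraries of H3K27me3, 1 antibody and unknown unique fragments after downsampling limit precision.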
